A study of Homo sapiens with 6 samples.

Results

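Complement is the part of innate immunity in which plasma proteins, most of them made by hepatocytes, cut and activate each other on the surface of microbes. The 9 genes described here encode complement components and inhibitors of liver origin. They are C3, the proteases C1R, C1S, C2 and CFB, and the inhibitors C4BPA, C4BPB, CFI and SERPING1, and all 9 were found by name among the 23524 genes of the table. They were chosen on readout, that is from earlier results of these same libraries, in which their FPKM values in EFTUD2-overexpressing cells were known to differ from those of the controls. Their differences are therefore given as a description, with no test. Hep G2 is a human hepatocellular carcinoma cell line grown in culture. The control cells carried an empty lentivirus vector, and the EFTUD2-overexpressing cells carried the same kind of vector with the EFTUD2 gene, which encodes a GTPase of the spliceosome. Both were stable lines selected in puromycin. For each there were 3 libraries, numbered 1 to 3, of poly-A selected mRNA sequenced on the BGISEQ-500 platform. No source says whether the 3 libraries of a group came from separate cultures, so the spread between them may be technical.

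In the complement cascade, C1R and C1S start the classical pathway, in which C1S cuts C4 and C2. Cut C2, together with a fragment of C4, forms the enzyme that splits C3, and CFB does the same work in the alternative pathway. Host cells and plasma hold this in check with inhibitors, among them C4b-binding protein, factor I and C1 inhibitor. The liver raises the synthesis of several of these proteins in inflammation, in the acute-phase response to cytokines such as interleukin 6, which acts through STAT3, and to interferon.

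Levels are given as FPKM, that is fragments scaled to transcript length and to the mapped total of the library, so they are per length and can be compared between genes. How many reads lie behind a value is unknown, since no common step was found among low values. The transgene was checked first. EFTUD2 was found at 41.1, 54.4 and 46.3 FPKM across control replicates 1 to 3, against 106.6, 102.9 and 109.5 FPKM across EFTUD2 replicates 1 to 3 (exact permutation test, two-sided p = 0.1, the smallest that 3 against 3 libraries allow). Its log2 fold change was 1.16, with an adjusted p of 0.13 from limma. FPKM values summed to between 404342 and 434542 per library. EFTUD2 replicate 3 stood apart in its group, with an SD over genes of its log2 difference from replicates 1 and 2 of 0.51 and 0.60, against 0.23 between replicates 1 and 2.

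C3, the central component that all complement pathways split, was by far the most abundant of the 9. It was found at 460.4, 371 and 563 FPKM across control replicates 1 to 3, against 825, 782 and 1045 FPKM across EFTUD2 replicates 1 to 3. Each EFTUD2 library was thus above each control, with replicate 3 the highest in both groups. The means were 465 ± 95.9 FPKM (SD, n = 3) and 884 ± 141 FPKM (SD, n = 3), a ratio of 1.90, and the log2 fold change, on the scale of log2(FPKM + 1) as throughout, was 0.93 (standard error, SE, 0.20). C3 (Entrez gene 718) lies on chromosome 19 from 6677704 to 6720650 (GRCh38.p14, as for all positions here). In the controls its level was 5.24 times that of CFI and 118 times that of SERPING1, the highest and the lowest of the inhibitors.

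CFB, complement factor B, is the protease of the alternative pathway enzyme. It was found at 58.7, 41.98 and 73.1 FPKM across control replicates 1 to 3, against 144, 159 and 149.7 FPKM across EFTUD2 replicates 1 to 3. The groups were well apart, as the lowest EFTUD2 library was at 1.97 times the highest control. The means were 57.9 ± 15.5 and 150.7 ± 7.37 FPKM (SD, n = 3 each), and the log2 fold change was 1.40 (standard error 0.20). C2, the matching protease of the classical pathway enzyme, lies directly before CFB, with 422 bases between their annotated ends on chromosome 6 (C2 from 31897783 to 31945672, CFB from 31946095 to 31952084). It was found at 72.5, 63.0 and 82.7 FPKM across the controls, against 120.0, 124 and 141 FPKM across the EFTUD2 libraries. The groups of C2 did not overlap either, but its difference was smaller, and the log2 fold change was 0.82 (standard error 0.13). C2 was above CFB in each control and below it in each EFTUD2 library.

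The promoter of CFB is shown because matches to motifs of 3 families of transcription factors lie close together in it. RefSeq windows of 250 bases before to 50 after each annotated start (GRCh38.p14) were searched on both strands for TTCNNNGAA (STAT factors), for GAAA and GAAA set 2 bases apart (IRF factors), for TTGCNNNAA (C/EBP-like) and for the NF-kB motif. The CFB window, chr6:31945845-31946144 on the plus strand, held an IRF match that began 140 bases before the start, an NF-kB match at 112 bases and a STAT match at 92 bases, which do not overlap. They are in capitals, in that order, in the sequence below.
CFB: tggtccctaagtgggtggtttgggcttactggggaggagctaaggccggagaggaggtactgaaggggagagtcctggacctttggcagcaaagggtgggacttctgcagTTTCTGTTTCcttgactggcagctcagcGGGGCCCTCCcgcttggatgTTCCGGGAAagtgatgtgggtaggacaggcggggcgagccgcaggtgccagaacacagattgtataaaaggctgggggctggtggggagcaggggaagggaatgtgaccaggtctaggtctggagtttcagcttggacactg
Of all 35116 windows in the table, 7.66% held the STAT letters, 3.57% the IRF letters, 9.21% the C/EBP-like letters and 11.3% the NF-kB letters. Such a match is a description of the letters and was not tested for binding.

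C1R and C1S encode the paired proteases of the C1 complex. C1R was found at 3.42, 3.47 and 5.90 FPKM across control replicates 1 to 3, against 17.6, 28.2 and 10.2 FPKM across EFTUD2 replicates 1 to 3. It had the largest log2 fold change of the 9 genes, 1.83 (standard error 0.36), and the means were 4.26 ± 1.42 and 18.7 ± 9.02 FPKM (SD, n = 3 each). C1S was found at 7.31, 11.5 and 15.3 FPKM across the controls, against 30.1, 45.2 and 18.0 FPKM across the EFTUD2 libraries. EFTUD2 replicate 2 was the highest and replicate 3 the lowest of its group for both genes, and replicate 3 of C1S was at only 1.18 times the highest control. The log2 fold change of C1S was 1.34 (standard error 0.37). Both genes lie on chromosome 12, C1S from 7060718 to 7071032 and C1R from 7080219 to 7092445, with 9186 bases between them.

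Of the inhibitors, C4BPA and C4BPB encode the alpha and beta chains of C4b-binding protein, which helps factor I to cut C4b. C4BPA was found at 7.98, 7.02 and 9.39 FPKM across control replicates 1 to 3, against 20.3, 21.4 and 22.5 FPKM across EFTUD2 replicates 1 to 3. Its 3 EFTUD2 libraries lay close together, the lowest at 2.16 times the highest control, which was the widest gap of the 9 genes. The log2 fold change was 1.30 (standard error 0.13). C4BPB, which precedes C4BPA on chromosome 1 with 4239 bases between them (C4BPB from 207088860 to 207099993, C4BPA from 207104233 to 207144972), was found at 35.3, 40.1 and 40.6 FPKM across the controls, against 54.9, 63.3 and 54.3 FPKM across the EFTUD2 libraries. Its groups did not overlap, and its log2 fold change of 0.56 (standard error 0.11) was less than that of C4BPA. The beta chain was thus the more abundant mRNA of the pair in all 6 libraries, and the alpha chain showed the larger difference.

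The window of C4BPA, chr1:207103983-207104282 on the plus strand, is shown as the promoter of the gene with the widest gap between groups. It held a C/EBP-like match, in capitals, that began 231 bases before the start, and no match to the letters of the other 3 motifs.
C4BPA: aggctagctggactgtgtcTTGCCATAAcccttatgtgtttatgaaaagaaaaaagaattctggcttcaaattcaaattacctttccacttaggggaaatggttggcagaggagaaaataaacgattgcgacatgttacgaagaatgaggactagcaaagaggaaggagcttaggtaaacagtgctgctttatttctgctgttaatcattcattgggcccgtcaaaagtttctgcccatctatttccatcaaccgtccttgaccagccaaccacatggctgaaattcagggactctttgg
Windows were given for 6 of the 9 genes, 10 windows in all, and C1S, C3 and SERPING1 had none. The STAT letters were found in windows of 3 of the 6 genes (CFB, C4BPB and C1R), the C/EBP-like letters in those of C4BPA and C1R, and the IRF and NF-kB letters in that of CFB. Counted by window, as the shares over all windows were, the STAT letters were in 4 of the 10 windows. The C/EBP-like letters were in 2, and the IRF and NF-kB letters in 1 each. The STAT match of C4BPB lay where its windows overlap, so it was counted more than once. As only 10 windows were searched, nothing is read from these counts beside the shares.

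CFI encodes factor I, the plasma protease that cuts C3b and C4b and so stops the cascade. It was found at 76.0, 81.9 and 108 FPKM across control replicates 1 to 3, against 141, 131 and 114 FPKM across EFTUD2 replicates 1 to 3. This was the narrowest gap of the 9 genes, since EFTUD2 replicate 3 was at 1.05 times control replicate 3, and the log2 fold change was 0.55 (standard error 0.16). CFI lies on chromosome 4 from 109730982 to 109801999. SERPING1, on chromosome 11 from 57597685 to 57614848, encodes C1 inhibitor, which blocks C1R and C1S. By group mean it was the least abundant of the 9, although C1R was lower in control replicate 1 and in EFTUD2 replicate 3. It was found at 3.79, 2.46 and 5.57 FPKM across the controls, against 9.30, 9.60 and 11.6 FPKM across the EFTUD2 libraries. Its groups did not overlap, and it had a log2 fold change of 1.22 (standard error 0.24).

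**Figure D1:**
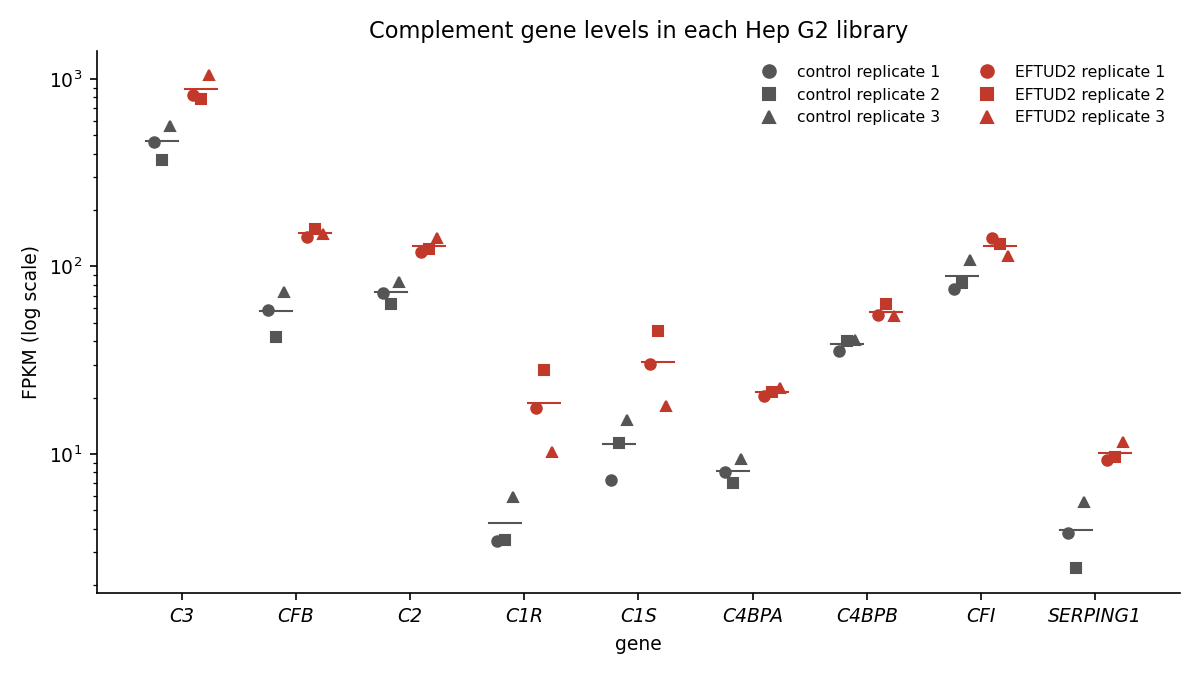
FPKM of the 9 complement genes on a log axis, with a symbol for each replicate, grey for control and red for EFTUD2 libraries, and a short line at each group mean (n = 3). All 3 red symbols lie above all 3 grey ones for each gene, with the narrowest gap for CFI and the widest for C4BPA.

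Across the 9 genes, the log2 fold change lay between 0.55 and 1.83 with a median of 1.22, and all 9 were higher in every EFTUD2 library than in every control. Over all 17224 genes tested, those with a mean of at least 0.1 FPKM, the median was -0.07, and 7.93% were higher and 19.4% lower in every EFTUD2 library. As the 9 were chosen from this same comparison, nothing is read from their count beside these shares. After scaling by the median of ratios, 2054 genes were higher and 2080 lower in every EFTUD2 library, against 1366 and 3337 with the values as deposited, and all 9 genes were still higher. Summed over the 9 genes, the level was 725, 623 and 903 FPKM in the controls and 1363, 1363 and 1566 FPKM in the EFTUD2 libraries, a ratio of means of 1.91. This was 0.18% ± 0.034 of the FPKM sum of a control library and 0.34% ± 0.021 of that of an EFTUD2 library (SD, n = 3 each). C3 made up 61.8% ± 1.98 of this sum in the controls and 61.5% ± 4.76 in the EFTUD2 libraries (SD, n = 3 each).

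Limma, which fits a linear model to each gene, gave 0 of the 17224 genes an adjusted p under 0.05 (0% called), the 9 included, and the lowest adjusted p over these genes came to 0.126. Before adjustment, 2118 genes had a p under 0.05. With array weights, by which a library that departs from its group counts less, limma called 7.87% of all genes, with 9 of the 9 among them. The weight was 0.12 for EFTUD2 replicate 3 and 4.11 for EFTUD2 replicate 1. Without EFTUD2 replicate 3, limma called 0.973% of the genes and 2 of the 9. Nothing is read from these counts of the 9 genes for the same reason.

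The 9 genes differed in how EFTUD2 replicate 3 compared with replicates 1 and 2. C1R and C1S were at 0.45 and 0.48 times the mean of replicates 1 and 2 in replicate 3. C3, SERPING1, C2 and C4BPA were higher in replicate 3, at 1.30, 1.23, 1.16 and 1.08 times that mean. CFB, C4BPB and CFI lay between, at 0.99, 0.92 and 0.84 times. Over the 8916 genes whose control mean reached 5 FPKM, the median of this ratio was 0.85, with quartiles of 0.67 and 1.07. The 2 proteases of C1 thus stood below the lower quartile, and the 4 genes that were higher in replicate 3 stood above the upper one. This was not particular to complement genes. Of the hepatocyte markers described further below, all but FGB (0.57) also stood above the upper quartile, from 1.09 for APOB to 2.10 for ALB. EFTUD2 itself was at similar levels in the 3 libraries. Among the controls, replicate 3 was the highest for all 9 genes, while 20.8% of all genes tested were highest there.

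**Figure D2:**
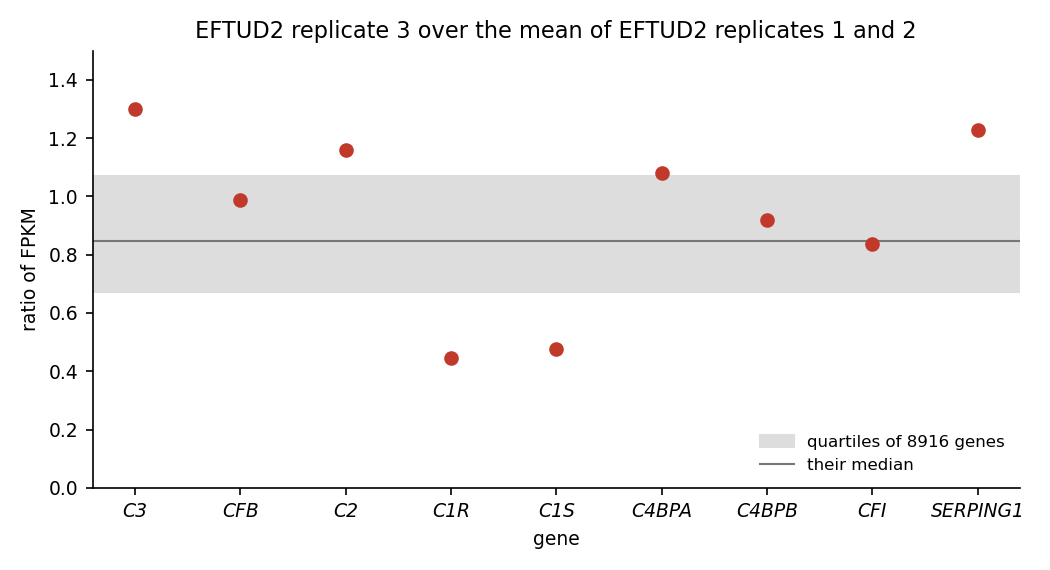
FPKM in EFTUD2 replicate 3 divided by the mean of EFTUD2 replicates 1 and 2, 1 red point for each gene. The grey band spans the quartiles, 0.67 and 1.07, and the line is the median, 0.85, of 8916 genes. C1R and C1S lie under the band, and C3, C2 and SERPING1 lie clearly above it.

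Ratios between genes of a pair within a library do not depend on the scaling of that library. C1R was at 0.47, 0.30 and 0.39 times C1S in control replicates 1 to 3 and at 0.58, 0.62 and 0.57 times in EFTUD2 replicates 1 to 3. The ratio in each EFTUD2 library was above that in each control, and the ratio varied less between the EFTUD2 libraries than either gene did. C4BPA was at 0.23, 0.18 and 0.23 times C4BPB in the controls and at 0.37, 0.34 and 0.42 times in the EFTUD2 libraries. CFB was at 0.81, 0.67 and 0.88 times C2 in the controls and at 1.20, 1.28 and 1.06 times in the EFTUD2 libraries. In each of these pairs of neighbours 1 gene showed the larger difference, by 1.53, 1.78 and 1.50 times in the mean ratio for C1R over C1S, C4BPA over C4BPB and CFB over C2. By contrast, the groups overlapped for the ratio of the inhibitor SERPING1 to its target C1S (0.37 ± 0.15 in the controls and 0.39 ± 0.23 in the EFTUD2 libraries, SD, n = 3 each) and for that of CFI to C3 (0.19 ± 0.028 and 0.15 ± 0.035, SD, n = 3 each). These pairs were set after the values were seen.

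**Figure D3:**
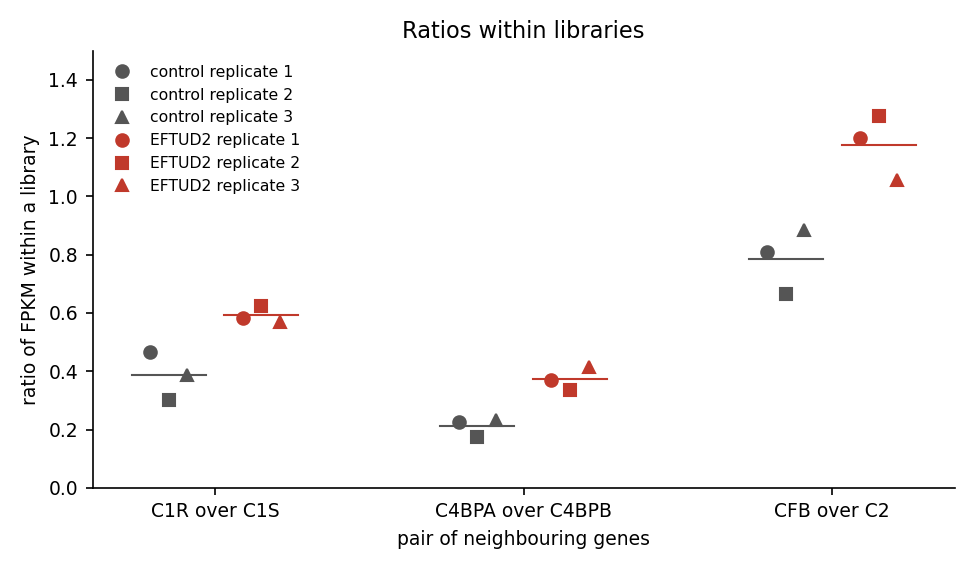
Ratio of FPKM between neighbouring genes within each library, with a symbol for each replicate, grey for control and red for EFTUD2 libraries, and a line at each group mean (n = 3). For each pair the 3 EFTUD2 libraries lie above the 3 controls.

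The rest of the pathway was taken from a list of 45 further complement genes, of which 7 were not analysed here. Of the other 38 genes, 24 passed the filter on low values, and the remaining 14 reached at most 0.08 FPKM in any library. Among the 24, limma called 0 at an adjusted p under 0.05. The log2 fold change had a median of 0.30 among them and of -0.07 among all genes tested, with 18 above 0 and 6 below. Without control replicate 2 this median of the further genes was 0.20, and with no filter on low values, over 38 genes, it was 0.02. In every EFTUD2 library 7 of the 24 were higher than in every control (7.93% of all genes tested), and 0 were lower (19.4% of all genes tested). Of these 7, 1 passed the filter only through the EFTUD2 libraries, in which it was higher. With array weights limma called 6 of the 24 (7.87% of all genes tested), all higher, namely C4A, C4B, C5, C8B, CD55 and C5AR1. Without EFTUD2 replicate 3 it called 1, CD55 (0.973% of all genes tested).

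C4A and C4B encode the 2 forms of C4, the partner of C2, and are nearly identical in sequence, so reads could be split between them in counting. Their sum was 104, 109.7 and 159 FPKM across control replicates 1 to 3, against 232, 237 and 160.1 FPKM across EFTUD2 replicates 1 to 3. EFTUD2 replicate 3 was level with control replicate 3, while replicates 1 and 2 were well above. Taken singly, C4B had a log2 fold change of 0.79 (SE 0.22, adjusted p = 0.40 from limma) with groups just apart, and C4A had one of 0.73 (SE 0.22, adjusted p = 0.40 from limma) with groups that overlapped.

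Of the terminal pathway, which builds the membrane pore, 6 genes were tested. C5, whose cutting starts this step, was found at 16.4, 11.0 and 18.6 FPKM across the controls, against 35.1, 30.6 and 22.2 FPKM across the EFTUD2 libraries, which were all above the controls (log2 fold change 0.90, SE 0.24, adjusted p = 0.40 from limma). C8B, a chain of C8 with lower levels, with 1.10, 0.88 and 1.97 FPKM across the controls, against 3.90, 4.40 and 4.41 FPKM across the EFTUD2 libraries, is named after its values were seen (log2 fold change 1.20, SE 0.19, adjusted p = 0.23 from limma). The other chains, C8A (5.16 ± 1.52 and 6.57 ± 1.60 FPKM, SD, n = 3 each) and C8G (5.33 ± 1.45 and 9.37 ± 4.58 FPKM, SD, n = 3 each), had overlapping groups. C9, which forms the pore itself, was at 0.01 FPKM or less in every library.

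The membrane regulators shield host cells from complement. CD55, which breaks up the C3-splitting enzymes, was found at 10.2, 7.45 and 7.56 FPKM across the controls, against 24.9, 43.0 and 17.0 FPKM across the EFTUD2 libraries. All 3 EFTUD2 libraries were above the controls, and the log2 fold change was 1.55 (SE 0.32, adjusted p = 0.31 from limma). From the highest down, the EFTUD2 libraries were in the order replicate 2, 1 and 3 that C1R and C1S also had. Replicate 2 was the highest EFTUD2 library for 42.8% of all genes tested, and nothing is read from the shared order. CD46, a cofactor of factor I, was at 58.3 ± 4.38 and 71.2 ± 7.03 FPKM (SD, n = 3 each), with groups that did not overlap (log2 fold change 0.28, SE 0.12, adjusted p = 0.40 from limma). CD59, which blocks the pore, was at 29.6 ± 5.45 and 31.6 ± 3.09 FPKM (SD, n = 3 each), which differed by less than the spread.

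Among the recognition molecules and other proteases, MBL2, mannose-binding lectin, was at 5.10 ± 1.56 FPKM in the controls and 4.25 ± 0.54 FPKM in the EFTUD2 libraries. MASP2, its protease, was at 11.1 ± 1.65 and 10.6 ± 4.31 FPKM, and C1RL, a relative of C1R, at 22.7 ± 3.48 and 25.8 ± 4.27 FPKM (SD, n = 3 each). The groups of these 3 genes overlapped. Whether they differ in this from C1R and C1S was not tested. The plasma regulators CLU (92.2 ± 29.5 and 140.5 ± 65.8 FPKM), VTN (77.9 ± 14.2 and 94.9 ± 4.96 FPKM), CPN1 (8.23 ± 2.40 and 9.66 ± 1.25 FPKM) and CPN2 (33.1 ± 10.1 and 33.3 ± 12.8 FPKM, SD, n = 3 each) also had overlapping groups. C5AR1, a receptor for C5a, stayed at 0.59 FPKM or less in all libraries, and it is named after its values were seen.

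**Figure D4:**
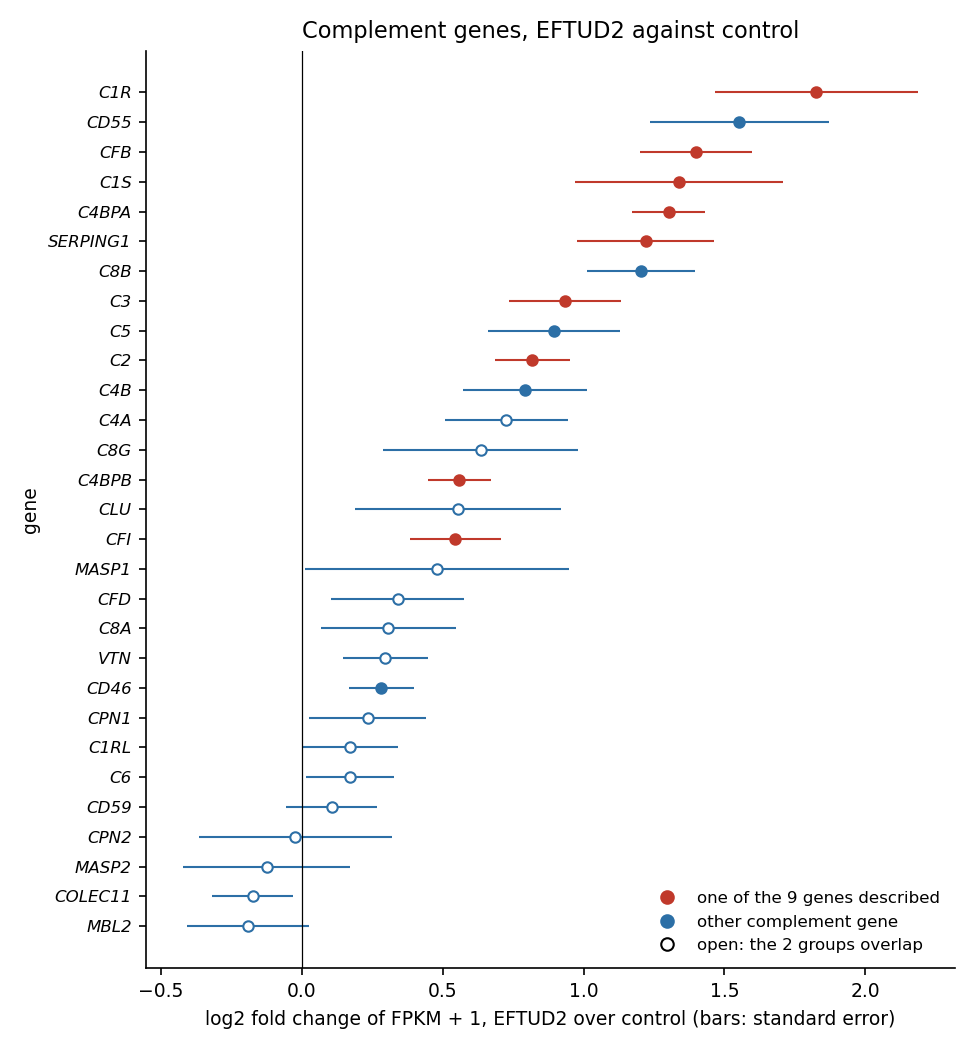
Log2 fold change of FPKM + 1, EFTUD2 over control, with its standard error from limma, for the 9 genes described (red) and the 20 other complement genes tested whose mean reached 1 FPKM in either group (blue). Filled points mark genes whose 3 EFTUD2 libraries lie all above the 3 controls. Values run from -0.19 for MBL2 to 1.83 for C1R, and 4 of the 20 blue points lie below 0.

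A list of 18 cytokines, receptors and transcription factors that are known to act on complement genes in liver cells was read beside the 9. Of these, 6 were higher and 3 lower in every EFTUD2 library (7.93% and 19.4% of all genes tested), and limma called 0. The 6 include IL6, which passed the filter on low values only through the EFTUD2 libraries, in which it was higher. C/EBP factors carry the acute-phase response of liver genes together with STAT3. CEBPD was found at 28.4, 15.4 and 33.3 FPKM across the controls, against 41.9, 48.6 and 43.2 FPKM across the EFTUD2 libraries (log2 fold change 0.84, SE 0.27, adjusted p = 0.40 from limma). CEBPB was at 32.7 ± 4.09 and 49.1 ± 7.91 FPKM (SD, n = 3 each; log2 difference 0.57, SE 0.15, adjusted p = 0.40 from limma). For both, each EFTUD2 library was above each control. CEBPA, also on the list, had a lower mean in the EFTUD2 libraries, with overlapping groups (45.1 ± 12.6 and 39.3 ± 20.7 FPKM, SD, n = 3 each). Its log2 fold change was -0.33 (SE 0.45, adjusted p = 0.73 from limma), and it is named after its values were seen.

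STAT3 was at 50.5 ± 1.89 and 61.4 ± 6.80 FPKM (SD, n = 3 each), with groups that did not overlap and an adjusted p of 0.40 from limma. Its feedback inhibitor SOCS3 was at 0.90 ± 0.37 and 6.77 ± 3.55 FPKM (SD, n = 3 each; adjusted p = 0.27 from limma). IL6 did not exceed 0.01 FPKM in any control, against 1.69, 2.97 and 0.15 FPKM across EFTUD2 replicates 1 to 3. IL6 and SOCS3 were both lowest in EFTUD2 replicate 3, as C1R, C1S, C4BPB and CFI were, whereas C3, C2, C4BPA and SERPING1 were highest there. CFB was neither. Many other genes were low in replicate 3 too, with a median of 0.85 times the mean of replicates 1 and 2 over 8916 genes. Nothing is read from this likeness. NFKB1, a subunit of NF-kB, was at 13.0 ± 0.88 and 9.03 ± 3.03 FPKM (SD, n = 3 each; log2 difference -0.53, SE 0.24, adjusted p = 0.41 from limma). Groups were also apart for IFNGR2 (log2 fold change 0.40), which was higher, and for IL6R (-0.40), which was lower, both named after their values were seen.

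The genes with profiles nearest to that of C3 were looked up among 8909 others whose control mean reached 5 FPKM, by the root mean square difference of log2(FPKM + 1) over the 6 libraries after subtracting each gene's control mean. The 5 nearest were a gene of the sequencing provider's own numbering (BGI_novel_G000107, 0.14), SOD2 (0.17), SLC13A3 (0.18), IFITM2 (0.19) and EML2 (0.19). SOD2 encodes the superoxide dismutase of mitochondria. Of the 9 genes, C2 was nearest to C3 at 0.12, and C1R and C1S were farthest, at 0.83 and 0.63. The measure describes likeness over these 6 libraries and nothing more.

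Complement is also made by macrophages, fibroblasts and endothelial cells, so markers of these cells were read in the same libraries. All 9 hepatocyte markers were expressed, ALB at 1773 FPKM or more in every library. Their sum was 7123 to 10361 FPKM in the controls and 10450 to 15348 FPKM in the EFTUD2 libraries, and 3 of the 9, APOB, APOH and SERPINA1, were higher in every EFTUD2 library (7.93% of all genes tested). The groups of ALB, APOA1, TTR, TF, FGB and AHSG overlapped, and the log2 fold change was above 0 for 8 of the 9 and -0.28 for TTR. The part of the difference in the summed hepatocyte markers in that of the complement genes was not tested. Of 8 macrophage markers, TYROBP was at 0 and PTPRC at 0.02 FPKM or less, and LYZ, at 744 FPKM or more in every library, made up most of the sum of 775 to 2279 FPKM in the controls and 885 to 1748 FPKM in the EFTUD2 libraries. CD68 lay between 16.7 and 33.4 FPKM with overlapping groups. CD14 was found at 0.86, 0.60 and 1.03 FPKM across the controls, against 1.41, 2.06 and 2.51 FPKM across the EFTUD2 libraries. It was the 1 of the 3 tested that was higher in every EFTUD2 library (7.93% of all genes tested). The other 5 reached at most 0.12 FPKM. Of 8 fibroblast markers, COL1A2 was at 0, and 4 were tested. Of these, 1, COL3A1, was higher in every EFTUD2 library (7.93% of all genes tested). It was listed at 0 in the controls, so it passed the filter only through the EFTUD2 libraries. The sum of the 8 fibroblast markers was 0.52 to 1.63 FPKM in the controls and 2.35 to 4.89 FPKM in the EFTUD2 libraries. The 6 endothelial markers summed to 1.10 to 1.53 FPKM in the controls and 1.29 to 1.60 FPKM in the EFTUD2 libraries. Of the 3 tested, CDH5 (mean 0.07 and 0.25 FPKM) and VWF (0.25 and 0.53 FPKM) were higher in every EFTUD2 library (7.93% of all genes tested). PECAM1 (1.01 and 0.66 FPKM) was lower in every EFTUD2 library (19.4% of all genes tested). CDH5 passed the filter on low values only through the EFTUD2 libraries. The libraries are labelled as the Hep G2 line, with no other cell named. Whether other cells had a part in the differences of the complement genes was not tested. In a bulk library, a larger share of cells that express a gene and more of its mRNA per cell cannot be told apart.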

How the data were processed

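RNA-Seq was analysed for 6 libraries of Hep G2 cells, 3 control and 3 EFTUD2, grouped and numbered by their titles. The authors extracted RNA with TRIzol, selected poly-A mRNA and sequenced it on the BGISEQ-500. They deposited 1 table of FPKM values per gene and library, rounded to 2 decimals. The submitters' processing notes name HISAT2, Bowtie2, RSEM and DESeq2 and the build hg38, without versions or roles, and the annotation and the strand setting are not given in the sources used here. The depth of each library is unknown. Ratios of low values (0.2 to 2 FPKM) between libraries showed no common step, as the commonest held at most 1.97% of genes.

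The deposited FPKM values were put on the log2(FPKM + 1) scale for the 17224 genes whose mean reached 0.1 FPKM, and groups were compared with limma 3.58.1 (eBayes with trend) in R 4.3.3 with Benjamini-Hochberg adjustment over all genes tested. A fold change on this scale understates that of low genes. Single values of genes other than the 9 were tested by exact two-sided permutation, where p cannot go below 0.1. The script was first tested on simulated data. Genes were named by rule: the 9, further complement genes whose mean reached 5 FPKM in either group, IL6, STAT3, SOCS3 and upstream genes with groups apart and a log2 difference of 0.5 or more either way, and the 5 genes nearest to C3. The 9 genes and all lists were chosen with earlier results of these data known. Entrez numbers of the 9 genes matched RefSeq (GRCh38.p14), which gave positions and promoters. Further steps used Python 3.11.15 with pandas 2.3.3 and matplotlib 3.10.9. The alternatives were a pseudocount of 0.1, no filter or one at 1 FPKM, scaling by the median of ratios or to a common sum, array weights, a block for the replicate number, and each library left out in turn. Values of 2 listed genes are not reported here.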

Additional observations from a re-analysis of the deposited data

How the results depend on the processing

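With the groups of the 9 complement genes already apart, a filter or a left-out library cannot make them overlap. Under both scalings tried, all 9 genes were still higher in every EFTUD2 library than in every control. Their median log2 fold change, 1.22 as reported, was 1.39 with a pseudocount of 0.1 and 0.89 with array weights, and lay between 0.99 and 1.40 when any 1 of the 6 libraries was left out. Of single genes, CFI stayed between 0.44 and 0.70 and C1R between 1.49 and 2.18 in these fits. The number of genes called, 0 as reported, was 1 with no filter on low values, 1355 with array weights and between 0 and 167 when 1 library was left out, the 167 without EFTUD2 replicate 3. Of the further complement genes, 6 were called with array weights and between 0 and 1 with 1 library left out. The number lower in every EFTUD2 library was 1 with a common sum and between 0 and 2 with 1 library left out, highest without control replicate 2. The number higher, 7 as reported, was 5 with the filter at 1 FPKM and between 6 and 10 with 1 library left out. The count of all genes higher, 1366 as reported, was 873 of 12556 with the filter at 1 FPKM. It was between 1696 and 2547 with 1 library left out. The count of all genes lower, 3337 as reported, was 3965 with a common sum. With 1 library left out it was between 4037 and 4565. Fewer libraries lie apart more easily, so the counts of the further genes are read only beside these. The median log2 fold change of the further genes, 0.30 as reported, lay between 0.20 and 0.41 with 1 library left out, lowest without control replicate 2. It was 0.20 with array weights and 0.02 with no filter. The log2 fold change of EFTUD2 was 1.15 with array weights (adjusted p = 0.0018 from limma) and between 1.07 and 1.26 with 1 library left out, and without EFTUD2 replicate 3 its adjusted p was 0.028. With the replicate number as a block, 0 genes were called and no value above changed its side of the threshold. The deviations of same-numbered libraries from their group means had correlations over genes of -0.30, 0.35 and -0.09. Those of differently numbered libraries ran from -0.40 to 0.38, so these values cannot show whether libraries were paired. No source describes a pairing. Depth is unknown, which leaves the precision of low genes such as C5AR1 unmeasured.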
